A study of Mus musculus with 2 samples.

Results

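The receptor gene Kit, its ligand gene Kitl, the chloride channel gene Ano1 and the transcription factor gene Etv1 were followed in single-cell RNA-seq of stromal cells from intestinal grafts. These 4 genes were picked by symbol out of the 28692 features of each library, and each symbol matched 1 feature. The donors were mouse embryos of the EYFP (C57BL/6) strain at E12.5, male and female mixed, and their large intestine (LI) or small intestine (SI) had been kept for 4 weeks as a graft at the kidney, inside its capsule, with wild-type adults as hosts. Live YFP+ Itgb1+ cells that lacked CD45, Ter119, BP3, CD31, EpCAM and L1CAM were then sorted, a gate meant to keep graft stroma and to leave out blood, endothelial, epithelial and neural cells. There was 1 library per group, called LI and SI here. LI grafts had been pooled and the number of SI grafts was not stated, so no difference between the grafts has a replicate check and no p-value is given. All intervals are 95% intervals that cover counting error only.

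Kit is a receptor tyrosine kinase that marks the interstitial cells of Cajal (ICC), the cells that pace the slow waves of gut muscle and relay signals from enteric nerves. It is activated by Kit ligand, the product of Kitl, which is made as a membrane protein that proteases can shed, and ICC are lost in the gut when either gene is defective. Ano1 encodes a calcium-activated chloride channel that carries the pacemaker current, and Etv1 is an ETS family transcription factor that Kit signalling through ERK keeps stable in ICC.

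In both grafts Kit, Ano1 and Etv1 reached their highest levels in the same small group of ICC. By share of UMIs (unique molecular identifiers, 1 per captured RNA molecule), fibroblasts (FB) held most of the Kitl and also most of the Etv1, and in the SI library pericytes held more of the Ano1 than ICC did. Fibroblasts were also most of the cells, and their shares of Kitl and Etv1 did not exceed their share of cells. In cells that passed the ICC gate, Kit stood at 1029.7 CPM in the LI library and 751 CPM in the SI library, Ano1 at 627 and 656 CPM, and Etv1 at 833 and 881 CPM. CPM are the UMIs of a gene per 1000000 UMIs of its class. Kitl was at 158 and 134 CPM in the same cells and at 174 and 181 CPM in pericytes. Kit over all cells was higher in the LI library, and Kitl in fibroblasts was higher in the SI library.

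The genes lie on 4 chromosomes, so no pair shares a locus. By GENCODE vM21 on GRCm38 (mm10), Kit (ENSMUSG00000005672) spans chr5:75574916-75656722 on the plus strand and Kitl (ENSMUSG00000019966) spans chr10:100015630-100100416 on the plus strand. Ano1 (ENSMUSG00000031075) spans chr7:144588549-144751974 on the minus strand and Etv1 (ENSMUSG00000004151) spans chr12:38779380-38870484 on the plus strand. All 4 are protein coding, and their longest transcripts have 21, 10, 25 and 13 exons in the order Kit, Kitl, Ano1, Etv1. Because Kit, Ano1 and Etv1 were high in the same cells and Etv1 is an ETS factor, the stretches of their RefSeq promoter windows (GRCm38.p6, 250 bases before to 50 after a start) that lie in no annotated exon are shown with the ETS core GGAA, read on both strands as GGAA or TTCC, in capitals. Kitl, which was not restricted to these cells, is shown beside them. All 4 symbols matched the RefSeq table. The stretches are chr5:75574737-75574915 for Kit, chr7:144738593-144738823 for Ano1, chr12:38779832-38780081 for Etv1 and chr10:100015571-100015629 for Kitl, each printed 5′ to 3′ on the strand of its gene.
Kit promoter: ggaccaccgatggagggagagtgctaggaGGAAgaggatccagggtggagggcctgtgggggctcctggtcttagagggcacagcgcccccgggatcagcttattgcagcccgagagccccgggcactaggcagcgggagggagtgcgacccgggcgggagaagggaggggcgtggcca
Ano1 promoter: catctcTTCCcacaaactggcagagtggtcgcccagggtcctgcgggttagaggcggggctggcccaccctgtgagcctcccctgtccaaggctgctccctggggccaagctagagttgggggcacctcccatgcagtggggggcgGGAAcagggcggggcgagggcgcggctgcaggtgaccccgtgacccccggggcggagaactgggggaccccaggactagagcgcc
Etv1 promoter: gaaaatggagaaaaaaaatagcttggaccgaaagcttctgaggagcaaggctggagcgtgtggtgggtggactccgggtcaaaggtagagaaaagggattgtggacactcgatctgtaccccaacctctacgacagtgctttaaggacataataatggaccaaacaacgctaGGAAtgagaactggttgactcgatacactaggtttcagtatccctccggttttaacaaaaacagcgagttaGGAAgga
Kitl promoter: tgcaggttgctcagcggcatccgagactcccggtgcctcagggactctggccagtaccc
The stretches differ in length, from 59 bases for Kitl to 250 for Etv1, so their counts of the core are not comparable. Over whole windows of 300 bases the core occurred 1 time for Kit, 3 times for Ano1, 5 times for Etv1 and 4 times for Kitl. It was found in 96.0% of the 32851 windows in the table, so its presence says little about any gene. The longer ETS sequence CCGGAAG, which holds the core and was also searched as CTTCCGG, was found in 8.86% of windows. It occurred 1 time in the Kitl window, in the transcribed part, and in none of the windows of Kit, Ano1 and Etv1 shown. A match in these letters is no evidence of binding, and the windows of Ano1 and Etv1 begin inside the gene spans, at starts that RefSeq lists, so other starts were not searched.

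The libraries held 63348069 UMIs in 11568 barcodes (LI) and 54918006 UMIs in 9631 barcodes (SI). Barcodes under 500 genes or over 10% mitochondrial UMIs were set aside, which left 9873 LI cells at a median of 5288 UMIs and 7910 SI cells at a median of 5682 UMIs. The kept cells shared 14 barcode sequences between the libraries, and none of the 14 had a Kit UMI. Classes were gated on markers that did not include the 4 genes. A cell was gated as ICC, smooth muscle cell (SMC) or pericyte when at least 4 of its class's 12, 8 or 8 markers had a UMI, and as fibroblast when at least 5 of 8 fibroblast markers did and no other gate was met. Fibroblasts made up 7951 LI and 5593 SI cells, while 82 and 66 immune, 7 and 6 endothelial and 5 and 46 epithelial cells had come through the sort. The labels name the tissue lamina propria.

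The gate held 192 LI and 50 SI cells as ICC. In the LI ICC gate the 12 ICC markers summed to 2297 CPM, with Cdh8 at 0, and all 5 melanocyte markers and 5 of 6 mast cell markers were at 0. In the SI ICC gate the ICC markers summed to 3348 CPM, with Cckar and Cdh8 at 0, and all melanocyte, mast cell and epithelial markers were at 0. Mast cells and melanocytes are among the other cells known to express Kit. ICC also carried fibroblast RNA, with a median of 5 of 8 fibroblast markers per cell in LI and 3 in the SI library. The gate was narrow: 125 of the 192 LI and 13 of the 50 SI cells had exactly 4 markers, and a further 235 LI and 72 SI cells had 3. Kit stood at 429 CPM in the LI cells with 3 markers, 53.2% of which had a Kit UMI, and at 27.1 CPM in the SI cells with 3 markers, 8.33% of which had one.

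Kit, the receptor, was the gene most confined to ICC. In the ICC gate it was at 1029.7 CPM (968 to 1095) in the LI library and 751 CPM (652 to 860.3) in the SI library. The SI value moved beyond this interval with other quality limits and with clusters in place of gates, as given below. A Kit UMI was present in 161 of 192 LI cells (83.9%) and 38 of 50 SI cells (76.0%), at median depths of 4590 and 4803 UMIs, and in 74.3% and 65.2% once cells were thinned to 2000 UMIs. The ICC gate held 44.1% of all Kit UMIs of the LI library and 68.3% of those of the SI library, although it held 1.94% and 0.632% of the cells. In SMC, Kit was at 11.6 CPM in LI and 0.390 CPM in the SI library. In pericytes it was at 9.53 and 0.957 CPM. In immune cells, most of which should lack the gene, mast cells, progenitors and some innate lymphoid cells aside, 3 of 82 LI cells (3.66%, median 5743 UMIs) and 2 of 66 SI cells (3.03%, median 6779 UMIs) had a Kit UMI. The shares in SMC (2.65% and 0.302%) and pericytes (1.48% and 0.375%) were at or under these, so in the gates they do not stand above background. With clusters in place of gates, SI SMC had 10.7 CPM of Kit and a UMI in 3.87% of cells (2.31 to 6.05), within the interval of the immune share (0.369 to 10.5), and 1 SMC cluster lay higher, as given with the clusters. Mesothelial cells had 0 Kit UMIs in 31 LI and 24 SI cells, which allows a share of up to 9.68% and 12.5%.

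The Kit found in LI fibroblast gates belonged mostly to cells that clustered with ICC. The fibroblast gates together held 12.5 CPM of Kit in the LI library (11.6 to 13.5, 627 UMIs) and 0.417 CPM in the SI library (0.233 to 0.687, 15 UMIs). When each library was clustered with the 4 genes left out of the variable genes, 2 LI clusters and 1 SI cluster were ICC by their markers, and a further LI cluster (number 13, led by Kcnk3 and Dlk1, with 6 ICC markers raised) stayed unnamed. Of the 627 LI Kit UMIs, 54.1% lay in 128 cells of the ICC clusters and 28.4% in 149 cells of cluster 13. The other 7674 LI cells of the fibroblast gates were at 2.27 CPM (1.87 to 2.74), against 0.389 CPM (0.213 to 0.653) in the 5592 SI cells outside ICC clusters. A Kit UMI was present in 0.964% of these LI and 0.215% of these SI cells. Immune cells had one in 3.66% and 3.03%, so these fibroblasts do not stand above background. By subset, most Kit of the LI fibroblast gates (555 of the 627 UMIs, 21.0 CPM) lay in fibroblasts of no named subset. Kit was at 8.21 CPM in PDGFRAhi FB, 2.40 in CD81 FB and 2.92 in Fgfr2 FB of the LI library. In the SI library the same subsets held 2, 1 and 2 Kit UMIs, and fibroblasts of no subset 10.

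Clusters gave a sharper picture of the Kit-high cells. LI cluster 12 (225 cells) had 1399 CPM of Kit, 840 of Ano1 and 1184 of Etv1, with a Kit UMI in 90.2% of cells. SI cluster 17 (39 cells) had 1196 CPM of Kit, 829 of Ano1 and 1301 of Etv1, with a Kit UMI in 94.9%. LI cluster 14 (145 cells, led by Lcn2, Hand1 and Fst) was also ICC by its markers but lower in all 3 genes, with 349 CPM of Kit, 143 of Ano1 and 292 of Etv1. The unnamed LI cluster 13 (204 cells) had 383 CPM of Kit in 35.3% of its cells, 264 of Ano1 and 239 of Etv1. Thus the LI clusters differed in mean Kit. These means also reflect how many cells had a UMI: 1270 Kit UMIs lay in 203 cells of cluster 12. In cluster 13, 480 lay in 72 cells, and in cluster 14, 314 lay in 71. No second SI cluster came near its ICC cluster, since the next highest, an SMC cluster led by Actg2 and Cnn1 (108 cells), had 32.8 CPM of Kit in 16.7% of cells (10.2 to 25.1), against 3.03% of SI immune cells.

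**Figure D1:**
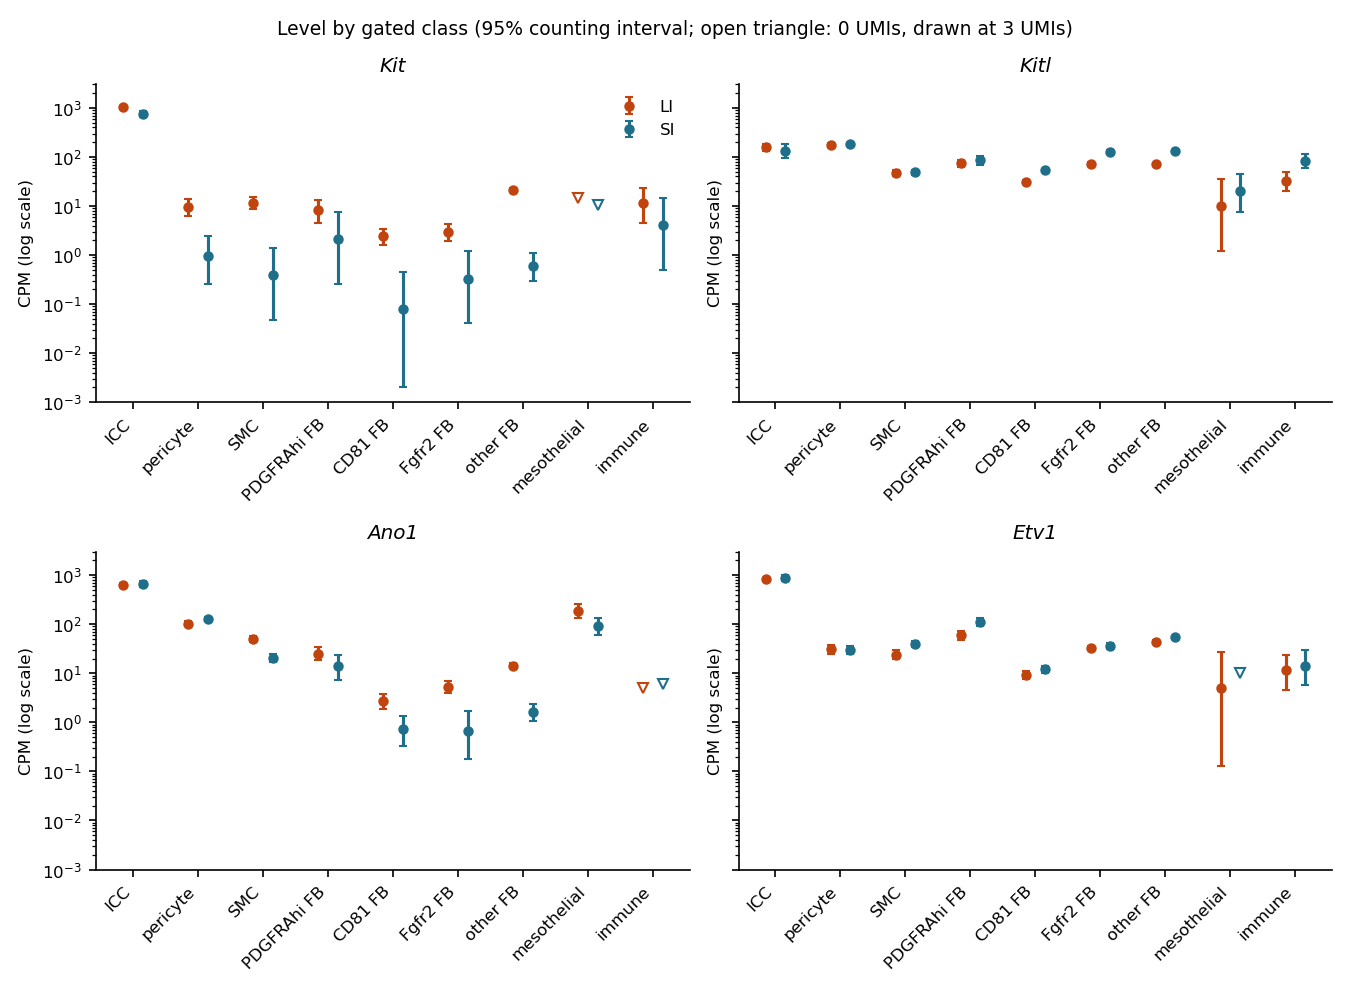
Level of each gene in CPM (log axis) by gated class in the LI (orange) and SI (blue) graft, with 95% counting intervals; open triangles stand for 0 UMIs and are drawn at 3 UMIs. Kit, Ano1 and Etv1 reach 627 to 1029.7 CPM in LI ICC, whereas Kitl is within 134 to 181 CPM in ICC and pericytes of both grafts.

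Kitl, the ligand, was detected in most classes. In ICC it was at 158 CPM (135 to 185) in LI and 134 CPM (94.5 to 185) in the SI library, and in pericytes at 174 CPM (159 to 189) and 181 CPM (169 to 195). The intervals of ICC and pericytes overlapped in both grafts. In the gate, ICC with exactly 4 markers had 187 CPM in LI (125 cells) and 288 in SI (13 cells). ICC with 5 or more markers had 114 CPM (82.5 to 153) and 89.2 CPM (53.7 to 139), below the pericyte intervals of both grafts. Clusters did not give this order in LI, where cluster 12, highest in Kit, had 198 CPM (170 to 229) and pericytes 197 (182 to 213). In SI the intervals of cluster 17 (110 CPM, 68.2 to 168) and of the pericyte clusters (128 CPM, 120 to 136) overlapped as well. Among fibroblasts of the LI library, Kitl was at 73.9 CPM in PDGFRAhi FB, 71.8 in Fgfr2 FB and 31.0 in CD81 FB. The SI order was Fgfr2 FB at 129 CPM, PDGFRAhi FB at 85.7 and CD81 FB at 53.1. SMC had 47.0 and 48.6 CPM, and mesothelial cells, the lowest of these classes, had 9.94 CPM in LI and 20.7 in the SI library from 2 and 6 UMIs. The few endothelial cells had the highest level of any class gate, 243 CPM (148 to 375) in 7 LI cells and 426 CPM (227 to 728) in 6 SI cells. The 5 LI epithelial cells had 0 Kitl UMIs, which allows up to 64.5 CPM, and the 46 SI epithelial cells had 65.2 CPM (46.4 to 89.2). CD81 FB were thus the lowest fibroblast subset in both grafts, and the intervals of PDGFRAhi FB and Fgfr2 FB overlapped in the LI library only. Immune cells had 32.7 CPM of Kitl (interval up to 50.5) with a UMI in 14.6% of cells in LI and 83.0 CPM (59.5 to 113) with a UMI in 25.8% in the SI library. The LI intervals of CD81 FB, SMC and mesothelial cells overlapped with that of immune cells. Of the SI intervals, those of ICC, PDGFRAhi FB and epithelial cells overlapped with the immune interval, and CD81 FB, SMC and mesothelial cells lay below it. Kitl in those classes thus does not stand above the immune cells.

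By amount, fibroblasts held most of the ligand RNA, but no more than their share of cells. The fibroblast gates held 72.9% of all Kitl UMIs in the LI library and 69.4% in the SI library, with 80.5% and 70.7% of the cells. Pericytes held 11.9% and 14.3% with 5.49% and 10.1% of the cells. SMC held 4.55% and 4.69% with 6.12% and 8.38%, and ICC 3.69% and 0.697% with 1.94% and 0.632%. A Kitl UMI was seen in 22.9% of LI and 32.7% of SI fibroblasts, and in 48.5% and 48.7% of pericytes. With each cell thinned to 2000 UMIs, which left out 727 LI and 537 SI cells, the shares were 11.4% and 17.4% in fibroblasts and 30.1% and 26.7% in pericytes. In mesothelial cells 6.45% of LI and 16.7% of SI cells had a Kitl UMI, at medians of 6278 and 11171 UMIs.

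Among clusters, the highest Kitl was found in 1 kind of fibroblast cluster in each graft. LI cluster 9 (449 cells) had 301 CPM (278 to 326) with a UMI in 56.8% of cells, and SI cluster 2 (788 cells) had 448 CPM (426 to 471) with a UMI in 68.0%. Kcnn3, Jam2, Car8, Tmem229a, Fibin and Chodl were among the 8 leading genes of both clusters. Kcnn3 encodes a calcium-activated potassium channel known from the PDGFRA+ interstitial cells of gut muscle. These clusters were almost free of the receptor, at 4.46 CPM of Kit in LI and 0.559 in the SI library. At the other end of the fibroblast clusters, LI cluster 10 (led by Cthrc1 and Prg4) had 8.88 CPM of Kitl and SI cluster 3 (led by Pi16 and Igfbp6) had 14.2. Split by a Kcnn3 UMI, a split chosen after the clusters were seen, fibroblast gates had 136 CPM of Kitl with and 47.1 without it in the LI library, and 184 and 63.6 in the SI library.

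**Figure D2:**
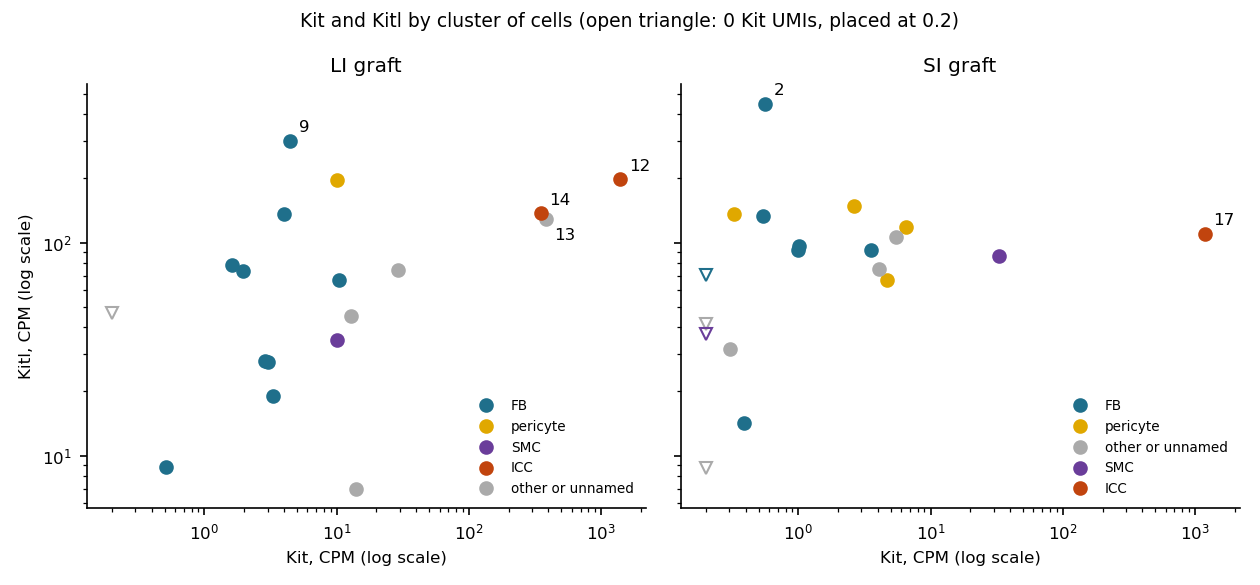
Kit against Kitl in CPM for each cluster of cells (both axes log), coloured by class, with cluster numbers at ICC clusters, at LI cluster 13 and at the clusters highest in Kitl; open triangles have 0 Kit UMIs. The highest Kitl (301 CPM in LI cluster 9, 448 in SI cluster 2) lies at under 5 CPM of Kit, and the ICC clusters 12 and 17 lie at 198 and 110 CPM of Kitl.

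Ano1, the chloride channel, was highest in ICC but was also a gene of mural and mesothelial cells. In the ICC gate it was at 627 CPM (579 to 678) in LI and 656 CPM (564 to 759) in the SI library, with a UMI in 79.2% and 84.0% of cells (63.9% and 58.7% thinned). Mesothelial cells came next in the LI library at 189 CPM (134 to 259, 31 cells), followed by pericytes at 102 CPM (90.9 to 114) and SMC at 49.0 CPM. In the SI library, pericytes at 131 CPM (120 to 142) and mesothelial cells at 93.0 CPM (61.3 to 135, 24 cells) had overlapping intervals, and SMC were at 20.5 CPM. Among fibroblasts PDGFRAhi FB were highest, at 25.2 CPM in LI and 13.7 in the SI library, while CD81 FB and Fgfr2 FB were at 2.71 and 5.30 CPM in LI and at 0.717 and 0.666 CPM in the SI library. Immune cells had 0 Ano1 UMIs in 82 LI and 66 SI cells, which allows a share of up to 3.66% and 4.55%, so the 36.3% of LI and 41.4% of SI pericytes with a UMI lie above background. Cells of the ICC gate held 29.5% of Ano1 UMIs in LI and 13.1% in the SI library, and pericytes held 14.1% and 39.6%. The ICC gate was 1.94% and 0.632% of the cells, and pericytes were 5.49% and 10.1%.

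Etv1, the ETS factor, was highest in ICC, with lower levels in fibroblast subsets that differed from each other. In the ICC gate it was at 833 CPM (778 to 892) in LI and 881 CPM (774 to 999) in the SI library, with a UMI in 88.0% and 78.0% of cells (68.1% and 67.4% thinned). PDGFRAhi FB followed with 59.1 CPM (48.5 to 71.4) in LI and 111 CPM (90.8 to 134) in the SI library. Fgfr2 FB had 32.8 and 36.1 CPM, pericytes 31.0 and 29.9, SMC 24.1 and 39.8, and CD81 FB 9.42 and 12.2. An Etv1 UMI was seen in 7.32% of LI and 7.58% of SI immune cells, against 24.3% and 41.8% of PDGFRAhi FB. CD81 FB, at 6.64% and 8.20% and at a greater median depth (8507 and 7564 UMIs), did not stand above the immune cells. The CPM intervals of LI SMC (19.6 to 29.3) and SI pericytes (24.9 to 35.6) also overlapped with those of immune cells, which reached 23.6 in LI and 29.2 in SI. By share of cells, the intervals of Fgfr2 FB and pericytes in both libraries and of LI SMC overlapped with the immune interval. The highest fibroblast clusters were SI cluster 8 (365 cells, led by Sox6), with 158 CPM and a UMI in 50.7% of cells, and SI cluster 6 (500 cells, led by Wif1 and Col7a1), also with 158 CPM. In the LI library the Kcnn3 cluster 9 was highest among fibroblasts, at 95.6 CPM with a UMI in 28.3% of cells. The LI cluster led by Sox6 (758 cells) had 65.3 CPM and a UMI in 24.3% of cells. Mesothelial cells held 1 Etv1 UMI in LI and 0 in the SI library. By amount, fibroblast gates held 54.2% of Etv1 UMIs in LI and 66.8% in the SI library, and the ICC gate 26.5% and 11.9%. Fibroblast gates were 80.5% and 70.7% of the cells, and the ICC gate 1.94% and 0.632%.

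Set against the fibroblast gates, 4 of the 4 genes in the LI library and 3 of the 4 in the SI library were at least 2-fold higher in the ICC gate. Among all genes with at least 10 CPM in either class, 11.0% of 9447 in LI and 17.3% of 9547 in the SI library were at least 2-fold higher. Kit and Ano1 reached 10 CPM in the SI library through ICC alone, so they had to differ there. None of the 4 was at least 2-fold lower, where 7.09% and 13.0% of these genes were. Kit had the highest ratio of all ranked genes in both grafts, with a log2 ratio (pseudocount 1 CPM) of 6.25 (6.11 to 6.39) in LI and 9.05 (8.75 to 9.29) in the SI library. Ano1 ranked number 5 and number 4, with log2 ratios of 5.81 and 8.05. Etv1 ranked number 18 and number 51, with 4.57 and 4.51. Kitl had 1.33 (1.09 to 1.56) in the LI library, whereas its interval in the SI library, around 0.39, ran from -0.12 to 0.85.

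Kit, Ano1 and Etv1 were detected in the same cells. Of 460 LI cells with a Kit UMI, 318 had Ano1 (69.1%, 64.7 to 73.3) and 348 had Etv1 (75.7%), against 6.28% and 12.6% of the 9413 cells without Kit. Of 81 SI cells with a Kit UMI, 59 had Ano1 (72.8%, 61.8 to 82.1) and 49 had Etv1 (60.5%), against 9.41% and 15.7% of the 7829 cells without Kit. All 3 were found together in 288 LI and 44 SI cells. Inside the ICC gate, 132 of 192 LI cells (68.8%) and 32 of 50 SI cells (64.0%) held all 3, and 9 LI and 4 SI cells held none of them. When cells were thinned to 2000 UMIs, Ano1 was found in 62.4% of LI and 58.8% of SI cells with Kit, against 3.23% and 4.71% of cells without it.

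Ano1 and Etv1 were more frequent in cells with more Kit UMIs. In the LI library, Ano1 was seen in 26.7% of the 120 cells with 1 Kit UMI, 74.8% of the 127 cells with 2 to 4 and 89.7% of the 213 cells with 5 or more, and Etv1 in 35.0%, 85.0% and 93.0%. Ano1 was seen in SI cells of these groups in 45.7% of 35, 88.9% of 18 and 96.4% of 28 cells, and Etv1 in 31.4%, 61.1% and 96.4%. Median depth did not increase along these groups in the LI library (4831, 4438 and 4354 UMIs) and was 4579, 4833 and 5498 UMIs in the SI library. Cells with a lone Kit UMI thus held the other genes less often than cells with several, by more than the counting intervals in both libraries, except that for Etv1 in SI the intervals of 1 and of 2 to 4 Kit UMIs overlapped.

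**Figure D3:**
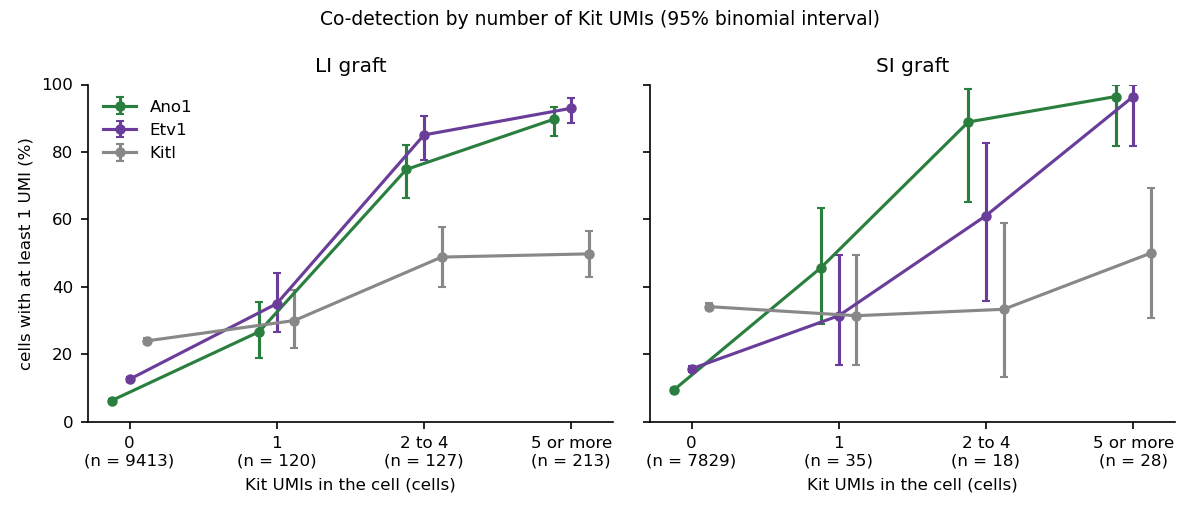
Percent of cells with at least 1 UMI of Ano1, Etv1 or Kitl by the number of Kit UMIs in the cell, for the LI (left) and SI (right) graft, with 95% binomial intervals. Ano1 runs from 6.28% to 89.7% in LI and from 9.41% to 96.4% in the SI library, while Kitl runs from 24.0% to 49.8% in the LI library.

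Among cells in neither the ICC gate nor an ICC cluster, Kit-positive cells still held Ano1 more often than the rest, while most cells with Ano1 had no Kit UMI. Cells of the unnamed LI cluster 13, which had 6 ICC markers raised and 72 Kit-positive cells, were left out only where they passed the ICC gate, and their part in the LI values was not tested. Of 153 such LI cells with Kit, 39.9% had Ano1, against 6.09% of those without Kit, and 46.4% had Etv1, against 12.2%. Of 38 such SI cells with Kit, 44.7% had Ano1, against 9.37%, and 28.9% had Etv1, against 15.6%. In the reverse direction 628 LI cells had Ano1, and 9.71% of these had Kit, against 1.04% of cells without Ano1. The same share was 2.27% of 749 SI cells with Ano1, against 0.296%. Etv1 was found in 19.4% of LI cells with and 12.3% without Ano1, but in 11.9% of SI cells with and 16.1% without Ano1. In LI pericytes there were 10.7 Ano1 UMIs for each Kit UMI, whereas the LI ICC gate had 0.609. In SI pericytes 546 Ano1 UMIs stood beside 4 Kit UMIs, whereas the SI ICC gate had 0.874 Ano1 UMIs for each Kit UMI.

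Ligand and receptor were also read in the same cells. Kitl was found in 44.3% of the 460 LI cells with Kit and 24.0% of those without it. In the SI library it was found in 38.3% of the 81 cells with Kit (27.7 to 49.7) and 34.1% of those without, which is within the counting interval. In the LI ICC gate, cells with Kit had 179 CPM of Kitl (151 to 210) and the 31 cells without it 65.8 CPM (34.0 to 115). In the SI ICC gate the values were 103 CPM (61.8 to 160) in 38 cells and 199 CPM (118 to 314) in 12 cells, so the direction was not shared.

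The LI and SI libraries differed most in Kit. Over all cells, Kit was at 38.2 CPM (36.7 to 39.8) in LI and 5.87 CPM (5.22 to 6.56) in the SI library, a log2 ratio of 2.51 (2.36 to 2.67). Of the 4 genes only Kit was at least 2-fold higher in the LI library, where 1.64% of 8827 genes were. Kit reached 10 CPM through the LI library alone, so it had to differ and nothing is read from its count. None of the 4 was at least 2-fold lower, where 2.28% were. A Kit UMI was present in 460 LI cells (4.66%) and 81 SI cells (1.02%). Within the ICC gate the log2 ratio of Kit was 0.46 (0.24 to 0.68), and it was -0.45 (-0.65 to -0.24) between the ICC clusters of the grafts, so the direction per ICC depended on how ICC were drawn. Ano1 (-0.07, interval -0.31 to 0.18) and Etv1 (-0.08, interval -0.29 to 0.13) differed within counting error in the ICC gate, but between the ICC clusters their ratios were -0.75 (-0.99 to -0.50) and -0.81 (-1.01 to -0.61). The LI side pooled clusters 12 and 14, whereas SI had cluster 17 alone. LI cluster 12 and SI cluster 17 had 1399 and 1196 CPM of Kit, 840 and 829 of Ano1 and 1184 and 1301 of Etv1. The study used both 3′ and 5′ capture chemistries without saying which for these libraries, so a difference of chemistry and of gut segment cannot be told apart. Because each library is 1 sample of tissue, fewer ICC captured and fewer ICC present cannot be told apart either.

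This difference moved with the quality limits. Among all deposited barcodes, those with a Kit UMI had a median of 4.25% mitochondrial UMIs in LI and 7.55% in the SI library, against 2.72% and 2.56% of those without. The limits removed 47 of 507 Kit-positive LI barcodes (9.27%) and 34 of 115 Kit-positive SI barcodes (29.6%), against 14.9% and 17.7% of barcodes without Kit. With them went 7.90% of LI and 34.0% of SI Kit UMIs. Of the Kit-positive barcodes removed, 43 of 47 in LI and 33 of 34 in SI were over the mitochondrial limit, and 19 and 4 were under the gene limit. The alternatives changed both limits together, so the part of each in the ratio was not tested. With limits of 200 genes and 20% the log2 ratio of Kit over all cells was 2.14, and with 1000 genes and 5% it was 3.50. Kit in the SI ICC gate was 925 CPM in 68 cells under the first and 139 CPM in 14 cells under the second.

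**Figure D4:**
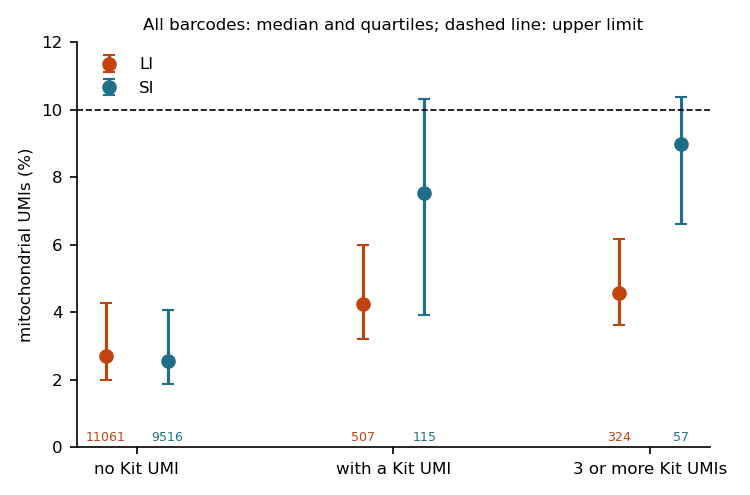
Median and quartiles of the percent of mitochondrial UMIs in all deposited barcodes, by Kit UMIs and graft, with the number of barcodes above the axis and the limit of 10% dashed. SI barcodes with 3 or more Kit UMIs have a median of 8.98%, close to the limit, against 4.59% in the LI library.

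Kitl differed the other way. In the fibroblast gates it was at 62.3 CPM (60.2 to 64.6) in LI and 102 CPM (99.0 to 106) in the SI library, a log2 ratio of -0.71 (-0.77 to -0.64). The SI value was higher in Fgfr2 FB (-0.83), CD81 FB (-0.76) and fibroblasts of no subset (-0.83), while the interval in PDGFRAhi FB, around -0.21, ran from -0.61 to 0.20. In pericytes (-0.06, interval -0.23 to 0.10) and SMC (-0.05, interval -0.32 to 0.22) the gates of the grafts differed within counting error. With clusters in place of gates both differed, in opposite directions: the ratio was 0.62 (0.47 to 0.76) in pericytes, from 197 and 128 CPM, and -0.60 (-0.98 to -0.22) in SMC, from 35.0 and 53.5 CPM. Immune cells showed a higher SI value too, with a ratio of -1.32 (-2.14 to -0.53), so the difference was not seen in fibroblasts alone. None of the 4 genes was at least 2-fold higher in the SI library over the fibroblast gates, where 1.63% of 8632 genes were, and 2 of the 4, Kit and Ano1, were at least 2-fold higher in the LI library, where 1.96% were. Both reached 10 CPM through the LI library alone, so they had to differ and nothing is read from this count. Ano1 was at 10.2 CPM in LI and 1.47 CPM in SI fibroblast gates, a log2 ratio of 2.17. In the gates the ratio of Etv1 was -0.15 (-0.25 to -0.04), and in PDGFRAhi FB it was -0.90 (-1.29 to -0.50). Fibroblast clusters in place of gates changed the calls of Kitl, Ano1 and Kit. Kitl was then at 59.1 and 131 CPM, a log2 ratio of -1.13 (-1.20 to -1.07), and so past 2-fold higher in the SI library. This call rested on SI cluster 1 (1202 cells, 41.5 CPM of Kitl, led by haemoglobin genes, Cpz and Lsamp), which stayed unnamed, while LI cluster 2, also led by Cpz and Lsamp and at 27.4 CPM, was counted as fibroblasts. With SI cluster 1 counted as well, an alternative chosen after seeing the data, SI fibroblasts had 109 CPM and the ratio was -0.87 (-0.94 to -0.80), not past 2-fold. For Ano1 and Etv1 the ratios were then 0.57 and -0.59. Without it, Ano1 was at 4.95 and 3.71 CPM, a log2 ratio of 0.34 (0.065 to 0.61), and so not past 2-fold. Etv1 was at 26.1 and 48.4 CPM, a log2 ratio of -0.87 (-0.98 to -0.76). Kit, at 3.23 and 0.750 CPM, was then under 10 CPM in both libraries and so not counted. It was also under the 11.4 and 4.05 CPM of the immune gate, so no difference is read from it.

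The genes highest in Kit-positive cells included Ano1 and Etv1. Over 3076 genes with at least 50 CPM in Kit-positive cells of both libraries, the 10 with the highest ratio to Kit-negative cells, by the lower of both grafts, were Prkcq, Kcnk3, Ano1, Etv1, Elovl6, Hand1, Ctxn3, Edn3, Atp2a3 and Pcp4l1. Of these, Prkcq, Elovl6, Hand1 and Edn3 were also markers of the ICC gate, which did not select the Kit-positive cells. Prkcq, which encodes protein kinase C theta, a known ICC marker, had 220.5 CPM against 2.12 in LI and 317 against 3.22 in the SI library. Kcnk3, a potassium leak channel gene, had 256 against 6.57 and 420 against 12.9. Atp2a3, a calcium pump of the endoplasmic reticulum, had 160.3 against 6.11 and 234 against 8.30. Of the 460 LI cells with Kit, 15 held endothelial marker UMIs (278 in all) and 36 held immune marker UMIs, and 2 held a mast cell marker UMI. Of the 81 SI cells with Kit, 2, 6 and 1 did. The part of these cells in the values was not tested, except that leaving out all cells with a Ptprc or mast cell marker UMI changed no level of the 4 genes beyond its counting interval.

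Across 16 profiles (8 classes in each library with at least 50 cells), Sh2d5 (r = 0.98), Prkcq (0.97), Elovl6 (0.96), Pdzrn4 (0.95) and Hand1 (0.95) were most like Kit by the Pearson correlation of log2(CPM + 10) among 5200 genes. For Ano1 they were Slc12a2 (0.95), Nsrp1 (0.95), Gpr20 (0.94), Pcp4l1 (0.94) and Fez2 (0.93). For Etv1 they were Gm26682 (0.98), Edn3 (0.98), Tspyl4 (0.97), Atp2a3 (0.97) and Pcnp (0.96). For Kitl they were Rif1 (0.92), Etnk1 (0.90), Snrk (0.88), Ankrd50 (0.87) and Rsrp1 (0.87). Kit correlated with Etv1 at 0.88 and with Ano1 at 0.82, but with Kitl at 0.35. Profiles of 1 library share that library and its depth, so these values are descriptions. Prkcq, Elovl6, Hand1, Gpr20 and Edn3 are markers of the ICC gate.

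Genes of the pathways around the 4 members were compared between the ICC gate and the fibroblast gates. Counted in the lists were genes with at least 10 CPM in either class in both libraries, apart from markers of the gate. Of all 8862 genes at that level, from which gate markers and the 4 members were not taken out, 5.61% were at least 2-fold higher in both grafts. At least 2-fold lower were 5.01%, and the median log2 ratios were 0.31 (LI) and 0.18 (SI). A gene that reached 10 CPM only in the class where it was higher had to differ, so the counts and medians of the lists are descriptions and support nothing. Downstream of the receptor, 1 of 18 signal transduction genes was at least 2-fold higher in both and 0 were lower. This was Map2k1, the kinase MEK1, with 81.1 CPM in ICC and 34.8 in fibroblasts of the LI and 65.3 and 29.7 of the SI library. Fyn, a Src family kinase, had 18.1 CPM in SI ICC and 89.0 in SI fibroblasts, and in the LI library its interval (-0.87 to 0.03) reached 0. Pik3r1, a regulatory subunit of PI3 kinase, had log2 ratios of 0.57 and 1.60.

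Of 8 counted output genes of ERK signalling and close relatives of Etv1, 4 were at least 2-fold higher in ICC of both grafts (Dusp4, Spry1, Spry4 and Etv5) and 0 were lower, with medians of 1.90 and 0.78. Dusp4 and Etv5 reached 10 CPM through ICC alone. Spry4, an inhibitor of receptor tyrosine kinase signalling, had 210 CPM in ICC against 34.4 in fibroblasts of the LI library and 116 against 26.4 of the SI library. Dusp4, a phosphatase of MAP kinases, had 10.0 against 1.98 and 10.9 against 1.33, with an SI interval of its log2 ratio from 0.45 to 3.83. Etv5, the close relative of Etv1, had 30.05 against 7.27 and 29.0 against 7.28. Dusp6 had 106 against 21.2 CPM in the LI but 21.8 against 18.2 in the SI library.

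Of 12 counted pacemaker genes for calcium handling, channels and coupling, 5 were at least 2-fold higher in both grafts and 1 was lower, with medians of 1.55 and 0.91. Slc12a2, the cotransporter that loads cells with chloride, had 353 CPM in ICC against 23.6 in fibroblasts of the LI library and 729 against 32.1 of the SI library. Gja1, the gap junction protein connexin 43, had 643 against 51.7 and 606 against 62.0. Atp2b1, a calcium pump of the plasma membrane, had 705 against 196 and 758 against 184. The other 2 were Atp2a2 and Gjc1, and the gene lower in both was Itpr2, with log2 ratios of -1.29 and -1.69, where the SI interval (-3.83 to 0.04) reached 0. Itpr2 reached 10 CPM through fibroblasts alone.

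Of 8 counted genes for responses to neurotransmitters, 4 were at least 2-fold higher in both grafts and 0 were lower, with medians of 1.89 and 0.85. Pde3a, a phosphodiesterase, had 516 against 106 CPM and 802 against 104. Chrm3, a muscarinic receptor, had 13.0 against 0.559 and 10.9 against 2.42, and the SI interval of its log2 ratio (-0.09 to 3.28) reached 0. It reached 10 CPM through ICC alone. Prkg1, the kinase activated by cyclic GMP, had 55.1 against 13.0 and 79.8 against 13.1. Pde5a was the other gene.

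Of 5 counted genes of class III receptor tyrosine kinases and their ligands, 0 were at least 2-fold higher and 1, Pdgfc, was lower in both grafts, with log2 ratios of -2.71 and -2.02. Pdgfc had 1 UMI in each ICC gate, and its SI interval (-4.11 to 0.18) reached 0. It reached 10 CPM through fibroblasts alone. Pdgfrb had log2 ratios of -0.70 and -0.71. Pdgfra, which is also a marker of the fibroblast gate, was at 188 CPM in ICC and 190 in fibroblasts of the LI library and at 145 and 293 CPM of the SI library. Of the 3 counted proteases linked to Kitl shedding (Adam9, Adam10 and Adam17) and the 2 counted anoctamins besides Ano1 (Ano6 and Ano10), 0 were past 2-fold in both grafts. Adam17 had log2 ratios of -0.32 and 0.28, Adam10 of 0.24 and -0.20 and Adam9 of -0.50 and -0.38. Ano10 had 0.52 and 0.93, and Ano6 0.23 and -0.12.

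**Figure D5:**
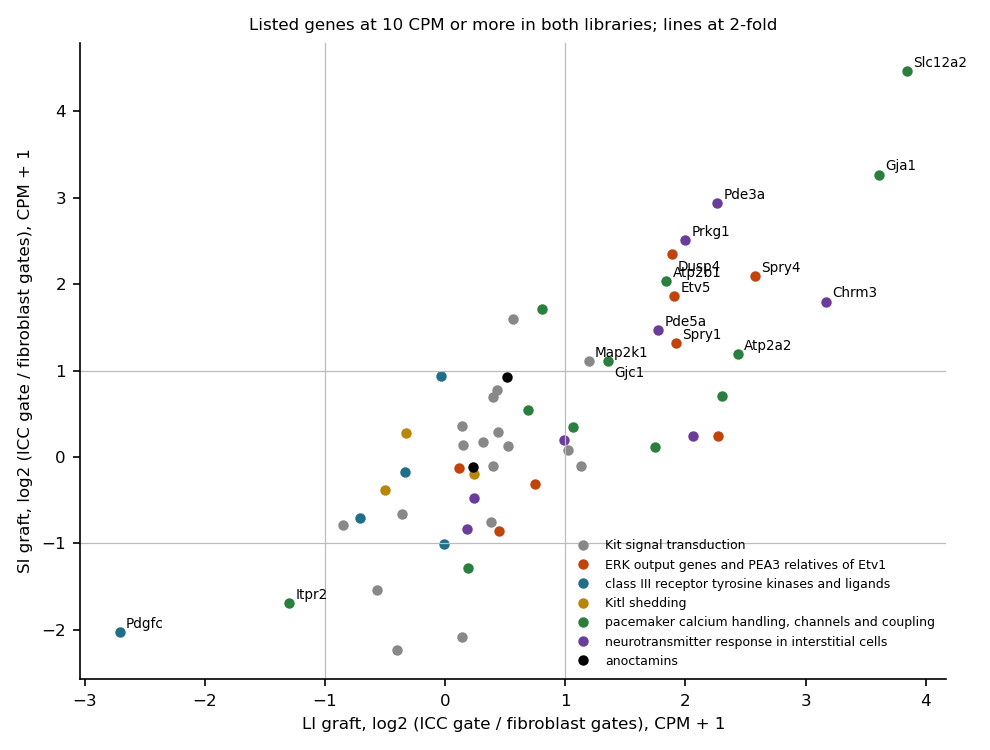
Log2 ratio of the ICC gate to the fibroblast gates in the LI (x axis) and SI (y axis) graft for listed genes with at least 10 CPM in both libraries, coloured by list, with lines at 2-fold and names for genes past 2-fold in both. Slc12a2 (3.85 and 4.46) and Gja1 (3.61 and 3.27) lie farthest up, and most genes of Kit signal transduction lie inside the lines.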

How the data were processed

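The authors aligned 10x Genomics reads to mm10 with Cell Ranger 3.1.0 and deposited raw UMI counts per gene and barcode, with no normalization. Seurat 3 is also named in the submitters' processing notes, and which of the 3′ and 5′ kits made which library was not stated. The 4 genes, the marker and gene lists and the alternatives were chosen with earlier results of these data known, and the cut-offs of gates and clusters were set after the data were seen. Barcodes under 500 genes or over 10% mitochondrial UMIs were set aside. Doublets were not removed in the values reported, and since Scrublet called 0 and 2 cells the 991 LI and 651 SI cells of highest score were left out in an alternative. Fibroblast subsets needed 3 of 8 PDGFRAhi, 4 of 6 CD81 or 2 of 4 Fgfr2 markers, and other classes 3 markers. Cells passing more than 1 gate (142 LI, 453 SI) or no gate (315 LI, 207 SI) were left out of the classes. Clusters came from 2000 variable genes without the 4 members, 30 principal components, 20 neighbours and Leiden at resolution 0.8 (scanpy 1.11.5, leidenalg 0.10.2), and a class needed a mean log2 of at least 1.0 over its markers, 3 markers raised and a lead of 0.5. CPM carry exact Poisson, shares Clopper-Pearson and ratios exact binomial 95% intervals. Ratios have a pseudocount of 1 CPM, which lessens ratios of low genes. Where a count was 0 the limit is that of 3 counts. Named genes are the 4 members, in each list the 3 with the largest mean difference and those past 2-fold, the 5 most like each member and the 10 highest in Kit-positive cells. 2 genes of the neurotransmitter list were matched by older symbols. TMM factors (edgeR 4.0.16) were used in an alternative only. The computing steps were tested on simulated data. There was 1 library per group, so no test was made. The level of 1 marker of the ICC gate is not reported here.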

Additional observations from a re-analysis of the deposited data

Results flagged for a closer look

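The barcodes removed by the quality limits, 1695 in LI and 1721 in the SI library, enter none of the levels by class or cluster and still held the 4 genes above the limit that a count of 0 allows. In the LI library Kit was at 86.0 CPM in them (74.5 to 98.8, 47 barcodes), Kitl at 55.5 CPM, Ano1 at 78.3 CPM and Etv1 at 73.1 CPM. In the SI library Kit was at 47.8 CPM (40.6 to 55.9, 34 barcodes), Kitl at 46.9 CPM, Ano1 at 61.3 CPM and Etv1 at 75.4 CPM. By CPM, Kit, Ano1 and Etv1 were thus higher in the removed than in the kept barcodes of both grafts, and Kitl was lower. The removed barcodes were shallow, at medians of 946 (LI) and 963 UMIs (SI). By share with a UMI, Kit was in 2.77% of removed and 4.66% of kept LI barcodes, and in 1.98% and 1.02% in SI. Ano1 was in 5.60% and 9.21% in LI and 5.46% and 10.1% in SI. Etv1 was in 5.55% and 15.5% in LI and 4.94% and 16.1% in SI. Whether these barcodes were intact ICC was not tested.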

How the results depend on the processing

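Of 61 values that the alternatives gave for the 10 leading results, 32 lay within the counting interval of the reported value and 29 did not, and all 61 had its direction where there was one. Kit in the ICC gate was 860 CPM (LI) and 139 (SI) with 1000 genes and 5% mitochondrial UMIs, 925 (SI) with 200 genes and 20%, 876 and 1196 with clusters in place of gates, 906 (SI) with 1 more marker per gate and 1154 and 890.3 as the mean of per-cell CPM. Kitl in fibroblasts was 59.1 (LI) and 131 (SI) with clusters and 73.0 and 123 as the mean of per-cell CPM. The share of cells with Kit was 3.78% (LI) and 0.692% (SI) thinned to 2000 UMIs, 2.71% and 0.447% thinned to 1000, 3.44% and 0.582% at 2 or more UMIs and 3.66% and 0.539% with the stricter filter. Ano1 was found in 62.4% (LI) and 58.8% (SI) of Kit-positive cells thinned to 2000 UMIs and in 84.8% (SI) at 2 or more UMIs. The log2 LI over SI ratio of Kit over all cells was 1.99 with a pseudocount of 5 CPM, and 2.14 and 3.50 with the looser and stricter filter, which were added after the data were seen. That of Kitl in fibroblasts was -1.13 with clusters, where 1202 SI cells of a cluster low in Kitl (41.5 CPM) stayed unnamed, and -0.87 (109 CPM in SI) with that cluster counted as fibroblasts, an alternative also added after the data were seen. With clusters the ratio of Kit turned to -0.45 in ICC, where LI clusters 12 and 14 were pooled, and to -0.082 in SMC. Of the other values 367 stayed within their intervals and 242 moved. Removing the highest doublet scores, run for all 10, moved none of them, nor did TMM scaling, run for both ratios, or leaving out cells with a Ptprc or mast cell UMI, run for the 4 levels and the 2 shares of Kit-positive cells. No paired analysis was possible because there was 1 library per group. Depth limits the small classes, such as SI ICC with 50 cells and 207 Kit UMIs and the mesothelial cells, 31 in LI and 24 in SI.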

Other observations

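Cells of both sexes were present in each library, and Kit-positive cells came from both sexes. By a UMI of a Y-linked gene without Xist, or the reverse, 10.0% of the LI cells that could be called were male, against 13.4% of those with Kit (10.2 to 17.1) and 17.3% in the ICC gate (11.8 to 24.0). In the SI library the values were 30.6%, 16.9% (8.76 to 28.3) and 28.2%, the last from 11 male and 28 female cells. The embryos behind each library were not separable further.

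Cells that met no gate held 446 Kit UMIs in the LI library (19.1% of its Kit UMIs) in 315 cells at a median depth of 1921 UMIs, and 19 in 207 SI cells at a median of 1836. Kit was at 550.3 CPM in these LI cells, Ano1 at 369 and Etv1 at 401, and at 35.4, 175 and 46.6 CPM in the SI cells. No gate was met by 81 of the 460 LI cells with Kit, at a median of 3286 UMIs. Whether depth kept them out of the gates was not tested. Chrm2, the M2 muscarinic receptor, was at 97.9 CPM in the SI ICC gate and at 3 UMIs in the LI ICC gate, against 7.06 and 5.11 CPM in SI and LI fibroblasts, and Cacna1h, a T-type calcium channel and marker of the gate, was at 90.7 and 17.0 CPM in SI and LI ICC. Both genes were chosen after their values were seen.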
